A study of Nicotiana benthamiana with 7 samples.

Results

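GFP reads longer than 30 nt are the long end of the small RNA reads that matched the GFP region of interest in leaves of Nicotiana benthamiana sprayed with double stranded RNA or water. They were chosen by length alone, as the 34 length classes from 31 nt to 64+ nt out of the 48 classes of the read length table, which begins at 17 nt. The last class, 64+ nt, is open and pools the reads of 64 nt and more. Small RNA libraries of 7 plants were compared: 3 of homozygous Nb-16C plants, which carry a GFP transgene, sprayed with dsRNA-midGFP (16C-ds), 3 of wildtype plants, which lack it, sprayed with the same dsRNA (WT-ds), and 1 of a homozygous Nb-16C plant sprayed with water (16C-w). Plants of 10 cm were sprayed at 6 bar by the sample labels, 2 mature sprayed leaves per plant were taken 5 days later, and 250 ng of RNA enriched for small RNAs went into each library, which was read over 75 cycles. The 6 dsRNA-sprayed libraries held between 7186316 and 8824820 total reads, of which 3196 to 4634 were counted on the region of interest, and 316 were counted in 16C-w, whose total reads were not analysed here. Since 16C-w is a single plant, its values carry counting error only. The groups differ in the GFP sequence present: WT-ds received it with the spray alone, 16C-w has the transgene alone, and 16C-ds has both.

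Long double stranded RNA that enters a plant cell can be cut by DICER-LIKE endonucleases (DCLs) into siRNAs of 21, 22 and 24 nt. These sizes lie below 30 nt. Longer fragments are outside the usual range of DCL products, and general RNA decay, other nucleases and breakage during handling are known to leave such fragments. A messenger RNA that is turned over gives fragments of many sizes, and a sprayed dsRNA can be broken on the leaf as well as inside it. In a small RNA library the long end is further limited by size selection and by the number of cycles, so that the longest fragments cannot be told apart by length.

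The sequence shown here sets the scale of these reads. It is the GFP part of dsRNA-midGFP on the sense strand, 139 nt long, from nucleotide 107 to 245 of the 605-nt region of interest within the GFP coding sequence, and the capitals mark its first 64 nt, the length of the shortest fragment that enters the open class.
midGFP: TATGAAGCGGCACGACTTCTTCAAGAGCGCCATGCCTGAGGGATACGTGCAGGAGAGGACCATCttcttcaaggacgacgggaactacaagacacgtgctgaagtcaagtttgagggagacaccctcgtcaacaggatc
A read of 31 nt covers 22.3% of midGFP and can be placed within it at 109 positions on each strand, whereas a read of 64 nt covers 46.04% and has 76 placements. The number of placements thus falls by 29.4% between 31 and 63 nt without any change in abundance. The read length table gives neither the position nor the strand of a read, so long reads inside and outside midGFP were not separated.

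Reads longer than 30 nt were found in each library, and their numbers overlapped between plants with and without the GFP transgene. Replicates 1 to 3 of 16C-ds held 934, 1287 and 873 of them, and those of WT-ds held 1214, 977 and 1016. Replicate 2 of 16C-ds was the highest and replicate 3 of 16C-ds the lowest of all 6 libraries. The means were 1031 ± 224 (SD, n = 3) with the transgene and 1069 ± 127 (SD, n = 3) without it, a log2 ratio of -0.067 (standard error 0.20) for 16C-ds over WT-ds. A 2-sided exact permutation test gave p = 0.7, where 0.1 is the smallest p that 3 libraries against 3 allow. Over the 9 pairs of 1 library of each group, the ratio ran from 0.719 to 1.32, so differences of this size cannot be told from the spread between plants. The sign of this ratio turned with the scale, as it was 0.15 on the log2 scale per 1000000 total reads (exact permutation test, p = 0.6). On that scale the 16C-ds libraries had 129.97, 171 and 118 long reads per 1000000 total reads and the WT-ds libraries 145, 111 and 120.

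As a share of all counted GFP reads, the long reads lay within a narrow range in the dsRNA-sprayed plants and were more prominent in the water-sprayed plant. They made up 28.2%, 27.8% and 27.3% of the counted reads of 16C-ds replicates 1 to 3, against 26.3%, 26.1% and 27.6% for WT-ds. The 16C-ds library had the higher share in 8 of the 9 pairs, but the groups overlapped through WT-ds replicate 3. The mean share was 27.8 ± 0.46% (SD, n = 3) for 16C-ds and 26.6 ± 0.84% (SD, n = 3) for WT-ds, a difference of 1.13 percentage points (2-sided exact permutation test, p = 0.2). Of the 316 reads of 16C-w, 132 were longer than 30 nt, which is 41.8% (95% Clopper-Pearson interval 36.3% to 47.4%). This interval lay above those of the 6 dsRNA-sprayed libraries, whose highest upper limit was 29.8%, although 1 water-sprayed plant gives no spread between plants. Counted in bases, with each read of the open class taken as 64 nt, the long reads carried at least 41.5% to 42.1% of the counted bases of a 16C-ds library, at least 38.8% to 40.6% of those of a WT-ds library and at least 59.7% of those of 16C-w.

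These bases can be set beside the coverage by position, which the authors deposited separately and which does not fully match the counts. The bases of the long reads alone were 0.779, 2.57 and 0.934 times the summed coverage from a position 5′ of midGFP to the end of the sequence covered for 16C-ds replicates 1 to 3, and 1.01, 0.977 and 0.97 times for WT-ds replicates 1 to 3. All counted bases were 1.85 to 6.19 times that coverage. Replicate 2 of 16C-ds, the library with the most long reads, thus had the least coverage for its reads, and what sets it apart was not tested.

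Counts ran on across the border at 30 nt. Just below it, reads of 29 nt numbered 98, 121 and 87 for 16C-ds replicates 1 to 3 and 122, 124 and 115 for WT-ds, and reads of 30 nt numbered 91, 141 and 82 against 130, 80 and 105. Just above it, reads of 31 nt numbered 82, 117 and 71 for 16C-ds and 127, 102 and 94 for WT-ds, and those of 32 nt numbered 71, 97 and 66 against 103, 85 and 96. The groups overlapped at each of these lengths, and 16C-w held 7, 7, 6 and 6 reads of 29, 30, 31 and 32 nt.

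Above the border the reads became rarer with length, with a shallower fitted slope in each plant that carries the transgene than in each plant that lacks it. A Poisson log-linear fit to the counts from 31 to 63 nt gave a drop per nucleotide of 8.64%, 8.63% and 8.29% for 16C-ds replicates 1 to 3. For the WT-ds replicates the drop was 9.69%, 10.3% and 9.94%. The values did not overlap, and the drop was smaller for the 16C-ds library in 9 of 9 pairs. On the log2 scale, the mean slope per nucleotide was -0.128 ± 0.0031 (SD, n = 3) for 16C-ds and -0.152 ± 0.0047 (SD, n = 3) for WT-ds. The difference of 0.0230 (standard error 0.0033) had p = 0.1 in a 2-sided exact permutation test, the smallest p possible, so that this design could not take it past 0.05. Leaving out any 1 library kept the difference between 0.0205 and 0.0252, whereas over 46 to 63 nt alone it was 0.0115 (exact permutation test, p = 0.6). The median length of the reads of 31 to 63 nt was 38 nt for each 16C-ds library, 37 nt for each WT-ds library and 41 nt for 16C-w. In 16C-w the drop was 4.01% per nucleotide (95% Wald interval 2.07% to 5.91%, counting error only), below the intervals of the 6 dsRNA-sprayed libraries, of which the lowest limit was 7.50%. This gap depended on the range of the fit. Over 31 to 45 nt the drop in 16C-w was 8.85% (95% Wald interval 3.56% to 13.9%), next to 7.35% to 10.3% in the dsRNA-sprayed libraries. Over 31 to 54 nt it was 6.33% (3.38% to 9.19%). This interval overlapped those of all dsRNA-sprayed libraries but WT-ds replicate 1, which had 9.48% to 11.3%. Between 31 and 60 nt the count fell from 16.4-fold to 51-fold in the dsRNA-sprayed libraries, next to a 1.36-fold fall in placements within midGFP. These folds carry a large counting error, as reads of 60 nt numbered only 5, 6 and 2 for 16C-ds and 5, 2 and 5 for WT-ds. When the count was taken per placement in midGFP, the drop per nucleotide was 8.75% to 9.34% for WT-ds and 7.33% to 7.68% for 16C-ds, where reads can also lie outside midGFP. This scale does not apply to 16C-w, which received no dsRNA.

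Compared with the shorter reads of the same library, the fitted slope of the long reads was steeper in all 3 WT-ds libraries and on either side in 16C-ds. From 17 to 30 nt the drop per nucleotide was 8.98%, 8.30% and 9.26% for 16C-ds replicates 1 to 3 and 8.92%, 9.50% and 7.94% for the WT-ds replicates. Here the groups overlapped, unlike above 30 nt. The log2 slope of 31 to 63 nt less that of 17 to 30 nt was -0.0123, -0.0125 and -0.0316 for WT-ds replicates 1 to 3, and 0.0053, -0.0052 and 0.0152 for the 16C-ds replicates. Each WT-ds library thus lay below each 16C-ds library, although these single values are given without their counting error. The mean over all 6 was -0.0068 ± 0.0162 (SD, n = 6; 2-sided exact sign-flip test, p = 0.40625), which pools groups that lie apart, and 3 libraries of 1 group are too few for such a test to pass 0.05. With 31 to 62 nt as the range of the long reads, chosen after the data had been seen, that mean was -0.0116 (exact sign-flip test, p = 0.125). In 16C-w the drop was 7.61% per nucleotide from 17 to 30 nt and 4.01% from 31 to 63 nt. The former rests on 184 reads and is given without an interval, so a difference between the 2 was not tested.

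Divided into bins, the longer of the long reads took a larger part of the counted reads of 16C-ds, by differences that 3 libraries against 3 could not take past the test. Reads of 31 to 40 nt made up 17.1%, 16.7% and 15.4% for 16C-ds replicates 1 to 3 and 17.1%, 17.1% and 18.3% for WT-ds, and these groups overlapped. Reads of 41 to 50 nt made up 7.10%, 6.60% and 7.57% for 16C-ds against 5.43%, 5.92% and 6.14% for WT-ds. Reads of 51 to 63 nt made up 3.02%, 3.19% and 2.82% for 16C-ds against 2.71%, 2.24% and 2.42% for WT-ds. At 41 to 50 and at 51 to 63 nt each 16C-ds library had a larger share than each WT-ds library, by 1.26 and 0.556 percentage points in the mean (2-sided exact permutation tests, p = 0.1 for each, and 0.2 after Benjamini-Hochberg adjustment over the 4 bins). For 31 to 40 nt the mean difference was -1.10 percentage points (exact permutation test, p = 0.3, adjusted p = 0.3). These shares have a common total, so a larger share of 1 bin goes with a smaller share of others.

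As raw numbers, the same bins overlapped between the groups. The 31-to-40-nt bin held 567, 774 and 492 reads for 16C-ds replicates 1 to 3 and 791, 642 and 673 for the WT-ds replicates. The 41-to-50-nt bin held 235, 306 and 242 reads against 251, 222 and 226, and the 51-to-63-nt bin held 100, 148 and 90 against 125, 84 and 89. The log2 ratios of 16C-ds to WT-ds were -0.22, 0.16 and 0.17 for these bins (2-sided exact permutation tests, p = 0.4, 0.3 and 0.5, each 0.5 after adjustment over the 4 bins). Without 16C-ds replicate 2 they were -0.40, 0.036 and -0.043, and with any other library left out they ran from -0.28 to -0.078, from 0.12 to 0.23 and from 0.061 to 0.35. Per 1000000 total reads, a scale added after the data had been seen, the 41-to-50-nt bin held 32.7, 40.7 and 32.8 reads for 16C-ds and 30.01, 25.2 and 26.8 for WT-ds, which did not overlap (log2 ratio 0.37, exact permutation test, p = 0.1). With total reads as the base, the log2 ratios of the 31-to-40-nt and 51-to-63-nt bins were -0.0058 and 0.39 (exact permutation tests, p = 0.9 and 0.3).

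With 41 nt as the border, which was chosen after the bins had been seen, the shares of the 2 dsRNA-sprayed groups and the water-sprayed plant did not overlap. Reads of 41 nt and longer made up 11.1%, 11.1% and 11.9% of the counted GFP reads of 16C-ds replicates 1 to 3, against 9.15%, 8.93% and 9.32% for the WT-ds replicates and 23.7% for 16C-w (95% Clopper-Pearson interval 19.2% to 28.8%). The means of 11.4 ± 0.49% (SD, n = 3) and 9.14 ± 0.19% (SD, n = 3) differed by 2.22 percentage points (2-sided exact permutation test, p = 0.1). Among the long reads alone, those of 41 nt and longer were 39.3%, 39.9% and 43.6% for 16C-ds, 34.8%, 34.3% and 33.8% for WT-ds and 56.8% for 16C-w. By number they were 420.3 ± 80.6 (SD, n = 3) for 16C-ds, 367 ± 48.7 (SD, n = 3) for WT-ds and 75 for 16C-w. The difference of the dsRNA-sprayed means was 53.3 reads (standard error 54.3), and over the 9 pairs it ran from -56 to 178 reads.

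Relative to the water-sprayed plant, the ratio of raw read counts became smaller with length in both dsRNA-sprayed groups. It was 14.6 ± 3.13 (SD, n = 3) for 16C-ds and 16.02 ± 2.18 (SD, n = 3) for WT-ds at 17 to 30 nt, and 10.7 ± 2.56 and 12.3 ± 1.38 at 31 to 40 nt. At 41 to 50 nt it was 9.0 ± 1.35 and 8.03 ± 0.54, and at 51 to 63 nt it was 3.76 ± 1.03 and 3.31 ± 0.75. The open class had the lowest ratio, at 2.92 ± 0.85 for 16C-ds and 2.17 ± 0.67 for WT-ds. The raw counts of 16C-w behind these ratios were 184, 57, 29, 30 and 16 reads from the shortest to the longest bin, and the SDs do not contain their error. Over the exact Poisson interval of the 16 reads, the mean ratio of the open class ran from 1.80 to 5.10 for 16C-ds and from 1.33 to 3.79 for WT-ds. Over that of the 184 reads, the mean ratio of 17 to 30 nt ran from 12.6 to 16.9 and from 13.9 to 18.6, so the intervals of the shortest and the longest bin did not meet. In 16C-w 2 lengths, 45 and 47 nt, had no read, and a count of 0 allows up to 3 reads or 0.949% of its counted GFP reads.

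No length class above 30 nt passed the test between the dsRNA-sprayed groups. In edgeR's quasi-likelihood test on raw counts with Benjamini-Hochberg adjustment over all 48 classes, 0 of the 34 long classes passed, and the background over all classes was 0%. The adjusted p was 0.942 to 1 in edgeR, where 0 of 34 had an unadjusted p under 0.05. DESeq2 likewise passed 0 of 34, with an unadjusted p under 0.05 in 1 of 34 and in 1 of all 48 classes. The signs of the log2 fold changes followed the length axis on the raw scale. All 10 classes from 31 to 40 nt lay below 0, with a median of -0.16, and of the 24 classes from 41 nt on 18 lay above 0 and 4 below, with a median of 0.20, against a median of -0.081 over all 48 classes. The classes from 17 to 30 nt also all lay below 0, from -0.26 at 27 nt to -0.0046 at 30 nt, so the sign below 0 was not particular to 31 to 40 nt. With total reads as library size, which moved the median of all classes to 0.13, 4 of the 10 shorter classes lay below 0 and 23 of the 24 longer ones above. Without 16C-ds replicate 2, 11 of the 24 longer classes lay above 0 and their median was -0.053, while that of the shorter classes was -0.39. The lengths of 1 library vary together, so these counts of classes are a description and not a test.

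Multiples of the DCL sizes at 42, 44 and 48 nt did not stand out from the decay in the dsRNA-sprayed plants. Reads of 42 nt numbered 21, 43 and 32 for 16C-ds replicates 1 to 3 and 33, 32 and 22 for WT-ds, 0.927 ± 0.204 times (SD, n = 6) the decay fitted from 31 to 62 nt without the length itself. Reads of 44 nt numbered 23, 35 and 21 against 39, 29 and 22, or 1.04 ± 0.18 times that decay. Reads of 48 nt numbered 16, 16 and 22 against 15, 17 and 14, or 0.951 ± 0.259 times. At each of these 3 lengths the groups overlapped and libraries lay on both sides of the decay. The log2 fold changes of 16C-ds over WT-ds were 0.14, -0.19 and 0.23, with standard errors of 0.30, 0.31 and 0.36 in edgeR's fit.

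Other single lengths had overlapping counts but for 1 class. The lowest log2 fold change of a class with at least 30 reads was -0.32 at 38 nt, with 41, 60 and 38 reads for 16C-ds and 61, 58 and 55 for WT-ds, and the highest was 0.88 at 57 nt, with 11, 9 and 8 against 8, 5 and 2 reads. The counts did not overlap at 1 of the 48 classes, which is 2.08%, namely at 49 nt, named here for that reason after its values had been seen. Reads of 49 nt numbered 30, 22 and 23 for 16C-ds and 17, 11 and 20 for WT-ds, with 3 in 16C-w. At 40, 50 and 60 nt the means were 42 ± 9.54, 16 ± 1.73 and 4.33 ± 2.08 reads for 16C-ds and 46 ± 5.20, 13 ± 2.0 and 4 ± 1.73 reads for WT-ds (SD, n = 3 each).

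At the far end, the count was higher at 63 nt than at 62 nt in each of the 7 libraries. Reads of 62 nt numbered 3, 5 and 1 for 16C-ds replicates 1 to 3, 2, 3 and 2 for the WT-ds replicates and 1 for 16C-w. Reads of 63 nt numbered 14, 19 and 10 for 16C-ds, 15, 8 and 8 for WT-ds and 6 for 16C-w. These counts are small throughout. Relative to the decay fitted from 31 to 62 nt, 63-nt reads were 3.44, 3.41 and 2.35 times as frequent as fitted for 16C-ds, 3.73, 2.74 and 2.37 times for WT-ds and 4.52 times for 16C-w. The mean log2 excess over the 6 dsRNA-sprayed libraries was 1.56 ± 0.29 (SD, n = 6; 2-sided exact sign-flip test, p = 0.03125, the smallest possible), a test that was chosen after these counts had been seen. Since 63 nt is both a multiple of 21 nt and the last length before the open class, these properties cannot be told apart, and the step was present in the plant that received no dsRNA.

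The open class of 64+ nt held more reads than any single length above 46 nt in each library. It held 32, 59 and 49 reads for 16C-ds replicates 1 to 3, 47, 29 and 28 for the WT-ds replicates and 16 for 16C-w. The dsRNA-sprayed groups overlapped, with means of 46.7 ± 13.7 (SD, n = 3) and 34.7 ± 10.7 (SD, n = 3) and a log2 ratio of 0.43 (2-sided exact permutation test, p = 0.2, and 0.5 after adjustment over the 4 bins). As a share of all counted GFP reads it was 0.967%, 1.27% and 1.53% for 16C-ds, 1.02%, 0.773% and 0.761% for WT-ds and 5.06% for 16C-w (95% Clopper-Pearson interval 2.92% to 8.09%). The mean share was higher by 0.407 percentage points for 16C-ds (exact permutation test, p = 0.2, adjusted p = 0.27), and the groups overlapped through WT-ds replicate 1. The interval of 16C-w lay above those of all 6 dsRNA-sprayed libraries, of which the highest upper limit was 2.02%. Among the long reads, 64+ nt took 3.43%, 4.58% and 5.61% for 16C-ds, 3.87%, 2.97% and 2.76% for WT-ds and 12.1% for 16C-w.

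Whether these reads form a pile-up depended on how far the decay was carried on. With the decay of 31 to 63 nt continued up to the 75 sequencing cycles, the open class held 1.004, 1.36 and 1.51 times the fitted number for 16C-ds replicates 1 to 3 and 1.59, 1.46 and 1.21 times for the WT-ds replicates. The mean log2 excess was 0.42 ± 0.25 (SD, n = 6; 2-sided exact sign-flip test, p = 0.03125, the smallest possible), above 0 in 6 of 6 libraries, though only by 0.0056 in 16C-ds replicate 1. By counting error of the open class alone, the 95% exact Poisson interval of the factor contained 1 for 16C-ds replicate 1 (0.687 to 1.42). It also contained 1 for WT-ds replicates 2 and 3 (0.981 to 2.10 and 0.806 to 1.75), and it lay above 1 for the other dsRNA-sprayed libraries. If fragments up to the 139 nt of dsRNA-midGFP are allowed to enter the class, a choice made after the data had been seen, the factors were 0.665, 0.898 and 0.977 for 16C-ds and 1.12, 1.07 and 0.867 for WT-ds, and the mean log2 excess was -0.12 (exact sign-flip test, p = 0.375). In 16C-w the factor was 1.02 up to the cycles, with a 95% exact Poisson interval of 0.581 to 1.65. The end at 139 nt does not apply to 16C-w, which received no dsRNA. The groups differed by a log2 excess of -0.15 for 16C-ds over WT-ds up to the cycles (exact permutation test, p = 0.6), and without 16C-ds replicate 1 the difference was 0.017.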

How the data were processed

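Small RNA libraries of 7 separate plants were used. Reads had been trimmed of adapters and mapped to GFP by the authors, who deposited the raw count of each read length within the region of interest. The submitters' processing notes name Bowtie2 and SAMtools; versions and the genome build are not given in the sources used here. The authors also deposited a signal by position, the coverage averaged over 10 nt with and without division by total reads, and the total reads of the 6 dsRNA-sprayed libraries were recovered from the quotient. Derived averages and ratios were not used, nor were 10 columns of per-sample values that matched no sample. A second sheet held equal counts in 42 of 42 cells.

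All 48 length classes entered edgeR (version 4.0.16, R version 4.3.3; quasi-likelihood test on equal library sizes without a dispersion trend) with Benjamini-Hochberg adjustment; DESeq2 (version 1.42.0) was an alternative. Decays, shares and exact tests of group means (log2 for counts) were run under Python (version 3.11.15) using scipy (version 1.17.1). The code was tested on simulated data. Intervals at 95% cover counting error only and take each read as independent, so they are too narrow where reads are PCR copies of the same molecule. Alternatives changed the library size, the length range, the baseline or the denominator, added the replicate number as a block, or left out each library in turn. The lengths named were 29 to 32, 40, 42, 44, 48, 50, 60, 62, 63 and 64+ nt, the highest and lowest fold change, any with an unadjusted p under 0.05 and any above both neighbours in all 6 libraries, and the last 2 criteria were met by none. Members, bins and tests were chosen with earlier results of these data known.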

Additional observations from a re-analysis of the deposited data

How the results depend on the processing

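With 0 lengths past the threshold in the main test, 0 passed under any of its 14 alternatives either, and the lowest adjusted p of a long class was 0.12 (edgeR, all counted GFP reads as library size). At an unadjusted p under 0.05 there were up to 5 of 34 long classes, next to 9 of all 48 classes, both without 16C-ds replicate 2. The filters on low counts removed no class. The difference in decay kept its sign under all 13 alternatives (0.0115 to 0.0282), as did the difference in the share of long reads under 11 (0.0212 as a ratio to 17 to 30 nt, 2.22 from 41 nt on). The log2 ratio of long reads was 0.15 per 1000000 total reads and 0.19 from 41 nt on in place of -0.067, and -0.24 to 0.043 with 1 library left out. The pile-up at 64+ nt had a log2 excess of 0.41 with the decay of 31 to 54 nt as baseline (exact sign-flip test, p = 0.09375), -0.12 with the decay carried on to 139 nt, and 0.37 to 0.51 with 1 library left out, where 5 libraries cannot reach p under 0.0625 in that test. Between the groups its difference of -0.15 became 0.17 against the mean of 54 to 63 nt, 1.34 percentage points among long reads, 0.407 percentage points among all reads, 0.43 as log2 counts, 0.64 per total reads and -0.28 to 0.017 with 1 library left out. With 1 library left out, the log2 ratio of counts was -0.40 to -0.078 for 31 to 40 nt, 0.036 to 0.23 for 41 to 50 nt, -0.043 to 0.35 for 51 to 63 nt and 0.23 to 0.68 for 64+ nt, and the difference in share was -1.46 to -0.59 percentage points for 31 to 40 nt and 0.27 to 0.553 for 64+ nt. Fold changes at single lengths turned sign at 40 nt (0.082 with total reads, -0.29 to 0.031 with 1 library left out), 42 nt (-0.13 to 0.37), 44 nt (0.024 with total reads, -0.45 to 0.046), 60 nt (-0.20 to 0.45) and 62 nt (-0.21 to 0.75), none past the threshold. Same-numbered libraries deviated with r of -0.28, -0.12 and 0.076 over the 48 classes. Such correlations cannot decide whether same-numbered plants were handled together, which the labels do not state. With the replicate block the decay difference was 0.0230 (exact sign-flip test over 3 pairs, p = 0.25, the smallest possible) and 0 lengths passed. Chosen after seeing the data were 31 to 62 nt, counts per placement, 139 nt as the end of the decay, shares from 41 nt on and within the long reads, and bins or 64+ nt per total reads. Single lengths above 50 nt rest on at most 20 reads per library.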
